A study of Homo sapiens with 10 samples.

Results

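The core circadian clock genes are described here in A375, a cell line from a human melanoma with mutant BRAF. The set of 10 genes was PER1, PER2, PER3, CRY1, CRY2, BMAL1, NPAS2, NR1D1, NR1D2 and BHLHE41, and each was found by its symbol in the probe annotation of the array. Named probe sets were found for 9 of the 10 genes, 1 probe set each, out of 18569 probe sets and 17492 named genes in all. RNA of PER1 was not analysed here. RNA was measured on 5 arrays of control cells and 5 arrays of cells plated with doxycycline at 2 µg/ml, and all cells were frozen on day 4. Omomyc, named in the title of the series, is an altered dimerisation domain of MYC that interferes with MYC at its target genes. The labels describe neither the construct nor its promoter, nor whether control cells carry it, and no group analysed here is doxycycline-treated cells without Omomyc, so effects of doxycycline and of Omomyc cannot be told apart.

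The circadian clock is a feedback loop of transcription that runs in most cells with a period of about a day. BMAL1 pairs with CLOCK or with its relative NPAS2, binds E-box elements and drives the PER, CRY, NR1D and BHLHE genes. PER and CRY proteins return to the nucleus and block this activator, whereas NR1D1 and NR1D2 (REV-ERB alpha and beta) repress BMAL1 and NPAS2, and BHLHE40 and BHLHE41 (DEC1 and DEC2) compete at E-boxes. The E-box is also the element that MYC binds with MAX.

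Within this loop, doxycycline-treated cells had more RNA signal for the activator genes BMAL1 and NPAS2 and for the repressor genes PER2, CRY1 and CRY2, and less for the REV-ERB and DEC2 genes. Of the 9 measured genes 5 rose (PER2, BMAL1, CRY1, CRY2 and NPAS2) and 3 fell (NR1D1, BHLHE41 and NR1D2), at an adjusted p under 0.05. PER2 rose 2.45-fold and BMAL1 2.11-fold, while NR1D1 was 2.44-fold and BHLHE41 2.13-fold lower. Among all 18569 probe sets 38.1% passed the same test, 20.9% higher and 17.2% lower with doxycycline. Brighter probe sets passed more often, and all 9 genes lay at or above the 40.8th percentile of mean signal. Without probe sets under the 25th percentile 6967 of 13927 passed, and without those under the median 5586 of 9285. A difference of 2-fold or more was measured for 4 of the 9 genes and for 6.47% of all probe sets. The median log2 fold change of the 9 genes was 0.41, against 0.04 over all probe sets, and their median size was 0.94 against 0.20. For 8 of the 9 genes no control array overlapped a doxycycline array, which held for 28.6% of all probe sets. As the set was chosen with earlier results of these data known, these contrasts with all probe sets describe it and test nothing. In bulk RNA a change of the share of cells in a state and a change per cell cannot be told apart, and with a single time point neither can a shift of clock phase and a change of mean level.

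**Figure D1:**
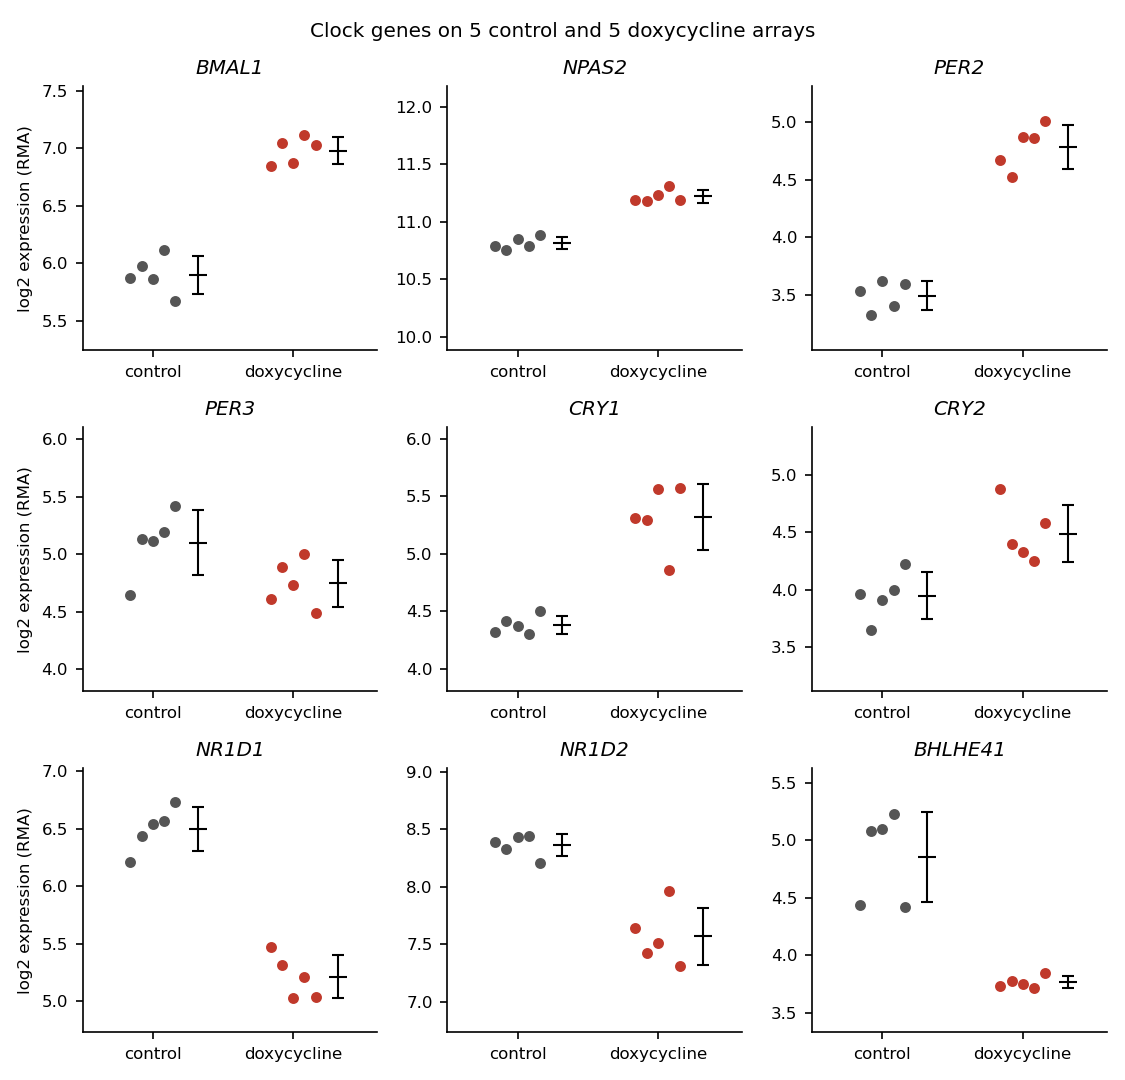
Log2 expression (RMA) of the 9 measured clock genes on each array, with 5 control arrays in grey, 5 doxycycline arrays in red and the mean ± SD beside each group. Every panel spans the same number of log2 units, and PER3 is the panel in which the groups overlap.

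The letters upstream of these genes show how the E-box falls among them. The 250 bases upstream of each start site in the RefSeq promoter table (GRCh38.p14) were searched. The canonical E-box CACGTG was found for NR1D2 and BHLHE41, and its variant CACGTT, the E-prime box, for PER2, CRY1, CRY2 and NR1D1. PER1, whose RNA was not measured, had CACGTG 173 bases before its start and is left out of the counts that follow. Stretches are printed for the measured genes only. The only PER2 start site in that table lay inside the gene, whose span reaches chr2:238300065, so bases upstream of that end were not searched. The stretches of NR1D2 and CRY2 also lie inside their genes, before the second start site of each. Those genes span from chr3:23945286 and chr11:45847118 on the plus strand. The 30-base stretches are shown because they carry these elements, which are in capitals with 12 bases on either side. Each is read 5′ to 3′ on the strand on which the element reads CACGTG or CACGTT.
NR1D2, chr3:23945954-23945983, plus strand: ggcgggcggggaCACGTGaggccgctcggc
NR1D2, chr3:23946004-23946033, plus strand: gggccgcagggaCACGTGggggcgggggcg
BHLHE41, chr12:26125068-26125097, minus strand: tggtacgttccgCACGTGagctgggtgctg
NR1D1, chr17:40100740-40100769, plus strand: tccaacagccggCACGTTgagctcttgcgc
PER2, chr2:238288790-238288819, minus strand: ggcgcgcgcggtCACGTTttccactatgtg
CRY1, chr12:107093621-107093650, plus strand: ccaccggcacctCACGTTtctgaagtgtgt
CRY2, chr11:45847275-45847304, minus strand: ggcccgccccctCACGTTcctaccatgtgt

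Of the 3 genes that fell, NR1D2 and BHLHE41 had CACGTG and NR1D1 had CACGTT. Among the 5 that rose 0 had CACGTG and 3 had CACGTT, and neither form was found for BMAL1, NPAS2 or PER3. The pair in NR1D2 began 155 and 105 bases before the second of its 2 start sites, and that of BHLHE41 48 bases before its start. The E-prime box of PER2 lay on the strand of the gene, and those of CRY1, CRY2 and NR1D1 lay on the opposite strand. CACGTG was present in 6.34% and CACGTT in 4.55% of the 35116 windows of this length in the RefSeq promoter table, searched on both strands. The 9 genes had 13 such windows, of which 2 held CACGTG and 4 held CACGTT. A match of letters is a description of the window, not a measured binding site, and matches outside the window were not looked for.

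The whole upstream window of NR1D1, the gene with the largest fall, is printed to show the setting of its E-prime box. It spans chr17:40100590-40100839 in GRCh38.p14 and is read on the minus strand, the strand of the gene, so that the element in capitals appears as its reverse complement, AACGTG.
NR1D1 upstream: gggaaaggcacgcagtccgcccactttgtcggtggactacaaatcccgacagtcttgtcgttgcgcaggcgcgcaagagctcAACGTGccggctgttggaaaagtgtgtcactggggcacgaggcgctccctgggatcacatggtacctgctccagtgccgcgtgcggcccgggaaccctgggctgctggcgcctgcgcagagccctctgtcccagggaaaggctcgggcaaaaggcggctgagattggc

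Other elements of clock control were searched in the same windows. The core of the element that ROR and REV-ERB proteins share was searched as TAGGTCA and TGGGTCA. The first form was present for CRY2 and the second for NR1D2, each in 1 of the 13 windows of the 9 genes. Of all windows 1.61% and 3.27% held them. A D-box, the element of DBP, TEF, HLF and NFIL3, was searched as TTATGTAA and TTACGTAA. The T form was present for PER3 and NR1D2, in 2 of the 13 windows, and in 0.834% of all windows. The C form was present for none of the 9 genes and in 0.105% of all windows. The letters TGACG, a partial cAMP response element, were present for PER2, CRY1, CRY2 and NR1D2. They were in 5 of the 13 windows and in 21.2% of all windows. The full element TGACGTCA, which contains them, was present for 0 of the 9 genes and in 1.65% of all windows. All NR1D2 matches and the TAGGTCA of CRY2 lay before the second start site of the gene, inside its span.

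Of the 3 measured activator genes BMAL1 and NPAS2 rose, and CLOCK, which is outside the set, did not pass. BMAL1 encodes the partner that no other protein fully replaces in the mouse clock. It read 5.87, 5.97, 5.86, 6.11 and 5.67 log2 units on control arrays 1 to 5, and 6.84, 7.04, 6.87, 7.11 and 7.03 on doxycycline arrays 1 to 5. Every doxycycline array was above every control array. The mean rose from 5.90 ± 0.16 to 6.98 ± 0.12 (SD, n = 5), a log2 fold change of 1.08 ± 0.09 (SE, 95% interval 0.88 to 1.28, limma adjusted p = 3.16e-07). Of all probe sets 5.51% had a change of at least that size.

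NPAS2, which can stand in for CLOCK as partner of BMAL1, read 10.79, 10.75, 10.85, 10.79 and 10.88 log2 units on the control arrays and 11.19, 11.18, 11.23, 11.31 and 11.19 on the doxycycline arrays. The arrays of a group lay close together and the groups did not overlap. Its log2 fold change was 0.41 ± 0.07 (SE, 95% interval 0.25 to 0.56, limma adjusted p = 3.19e-04), a 1.33-fold rise and the smallest among the 8 genes that passed. The probe set was brighter than 99.5% of all probe sets.

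Of the PER genes PER2 rose and PER3 did not pass. PER2, whose protein carries CRY into the repressor complex, read 3.53, 3.32, 3.62, 3.40 and 3.59 log2 units on control arrays and 4.67, 4.52, 4.87, 4.86 and 5.01 on doxycycline arrays. All doxycycline arrays were higher than all control arrays. The log2 fold change was 1.29 ± 0.10 (SE, 95% interval 1.07 to 1.51, limma adjusted p = 1.05e-07), the largest rise of the set, and 3.67% of all probe sets changed by as much. The control signal was above the first quartile of every array, 2.80 to 2.94 log2 units, but in the lower part of the range, where fold changes can be compressed.

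PER3, which is dispensable for rhythms in the mouse, read 4.64, 5.13, 5.11, 5.19 and 5.42 log2 units on control arrays and 4.61, 4.89, 4.73, 5.00 and 4.49 on doxycycline arrays. Control array 1 lay among the doxycycline values, and the other 4 control arrays lay above all doxycycline arrays. The log2 fold change was -0.35 ± 0.14 (SE, 95% interval -0.64 to -0.06, limma adjusted p = 0.0519). Without control array 1 it was -0.47 (adjusted p = 0.00555) and without doxycycline array 4 it was -0.42 (adjusted p = 0.0308), and both pass the threshold.

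Both cryptochrome genes rose. CRY1, the stronger repressor of BMAL1 and CLOCK, read 4.32, 4.42, 4.37, 4.30 and 4.50 log2 units on control arrays and 5.31, 5.29, 5.56, 4.86 and 5.57 on doxycycline arrays. Doxycycline array 4 was the lowest of its group and still above all control arrays. The log2 fold change was 0.94 ± 0.12 (SE, 95% interval 0.68 to 1.20, limma adjusted p = 1.61e-05), a 1.92-fold rise.

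CRY2, the other cryptochrome, read 3.96, 3.65, 3.91, 4.00 and 4.22 log2 units on control arrays and 4.88, 4.40, 4.33, 4.25 and 4.58 on doxycycline arrays. Control array 5 and doxycycline array 4 came closest to each other, and the groups did not overlap. Its log2 fold change was 0.54 ± 0.13 (SE, 95% interval 0.27 to 0.81, limma adjusted p = 0.00333), a 1.45-fold rise.

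The REV-ERB genes fell. NR1D1, a haem-binding nuclear receptor that represses BMAL1, read 6.21, 6.44, 6.54, 6.57 and 6.73 log2 units on control arrays and 5.47, 5.31, 5.03, 5.21 and 5.04 on doxycycline arrays. The groups were well apart. The log2 fold change was -1.29 ± 0.11 (SE, 95% interval -1.52 to -1.05, limma adjusted p = 2.63e-07), and 3.71% of all probe sets changed by as much. THRA, the thyroid hormone receptor gene whose end overlaps that of NR1D1 on the opposite strand in RefSeq, rose by 0.50 ± 0.09 log2 units (SE, limma adjusted p = 3.42e-04).

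NR1D2, the second REV-ERB, read 8.39, 8.33, 8.43, 8.44 and 8.21 log2 units on control arrays and 7.64, 7.42, 7.51, 7.96 and 7.31 on doxycycline arrays. Doxycycline array 4 was the highest of its group and remained below the control arrays. The log2 fold change was -0.79 ± 0.11 (SE, 95% interval -1.03 to -0.55, limma adjusted p = 3.95e-05), a 1.73-fold fall.

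BHLHE41, the E-box competitor DEC2, read 4.44, 5.08, 5.10, 5.23 and 4.42 log2 units on control arrays and 3.73, 3.78, 3.75, 3.72 and 3.85 on doxycycline arrays. Control arrays 1 and 5 sat apart from the other 3, whereas the doxycycline arrays were tightly grouped (SD 0.39 against 0.05, n = 5 each). The groups did not overlap, and the log2 fold change was -1.09 ± 0.15 (SE, 95% interval -1.40 to -0.77, limma adjusted p = 2.87e-05).

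Related genes were then compared within each array, to see whether relatives responded by different amounts. The log2 value of one gene was subtracted from that of the other on the same array, and the group difference of these values was tested with a two-sided exact permutation test over the 252 splits of the 10 arrays. The smallest p this allows is 0.00794. Of the 8 pairs listed, 6 had both genes measured, p-values were adjusted over these 6, and 5 passed. The members were chosen with earlier results of these data known, and BMAL2, CLOCK and BHLHE40 are relatives outside the set. That choice can favour a difference, so these p-values are not an independent test. A within-array difference shows an unequal change of signal, and probe sets can differ in how strongly they compress it.

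PER2 against PER3 gave the widest gap. Their difference lay between -1.84 and -1.11 log2 units on control arrays and between -0.37 and 0.52 on doxycycline arrays, a shift of 1.65 ± 0.20 (SE, n = 5 per group, exact permutation adjusted p = 0.0119). BMAL1 shifted against BMAL2, its close relative, by 1.01 ± 0.11 log2 units, from a range of -0.48 to -0.31 to a range of 0.28 to 0.85 (exact permutation adjusted p = 0.0119). BMAL2 itself did not pass the test, with a log2 fold change of 0.07 and a 95% interval of -0.15 to 0.29.

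CLOCK and NPAS2, the alternative partners of BMAL1, also moved apart. CLOCK minus NPAS2 changed by -0.74 ± 0.20 log2 units (SE, exact permutation adjusted p = 0.0119), and the groups met at -5.33 without overlapping. CLOCK alone had a log2 fold change of -0.33 (95% interval -0.68 to 0.02, limma adjusted p = 0.139), and -0.44 without doxycycline array 3 (adjusted p = 0.0432). BHLHE40 minus BHLHE41 shifted by 0.96 ± 0.25 log2 units (exact permutation adjusted p = 0.0119), from values of 1.09 to 2.30 to values of 2.49 to 2.83. BHLHE40, or DEC1, had a log2 fold change of -0.13 with a 95% interval of -0.36 to 0.10.

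For the REV-ERB pair, NR1D1 minus NR1D2 shifted by -0.49 ± 0.16 log2 units (SE, exact permutation adjusted p = 0.0286), so NR1D1 fell more than NR1D2. The groups overlapped, with -2.18 to -1.49 on control arrays and -2.75 to -2.11 on doxycycline arrays, and without control array 5 the shift was -0.40 (adjusted p = 0.0571). CRY1 minus CRY2 shifted by 0.40 ± 0.17 log2 units and did not pass (exact permutation adjusted p = 0.0635). That pair passed without control array 2 (0.48, adjusted p = 0.0381) and without doxycycline array 1 (0.50, adjusted p = 0.0238).

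**Figure D2:**
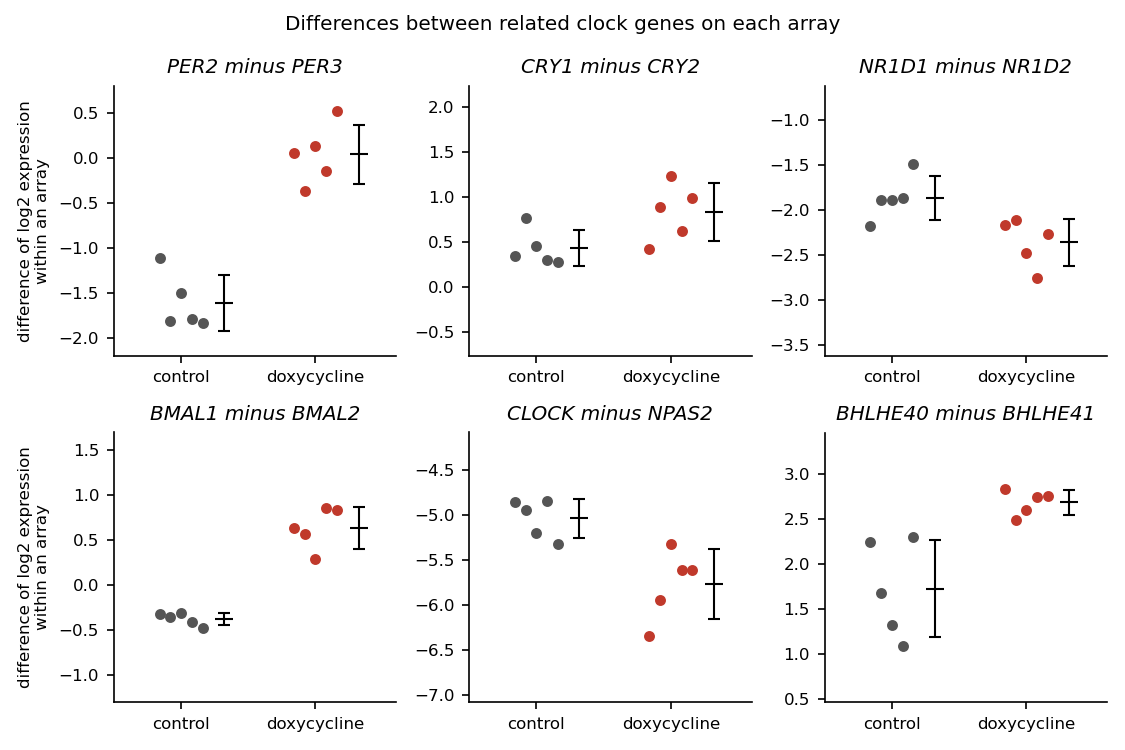
Difference of log2 expression between 2 related clock genes on each array, with control arrays in grey, doxycycline arrays in red and the mean ± SD beside each group. PER2 minus PER3 and BMAL1 minus BMAL2 are clearly separated between groups, while CRY1 minus CRY2 and NR1D1 minus NR1D2 overlap.

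Of 7 other loop genes measured, RORA rose, CIART fell and 5 did not pass, where 38.1% of all probe sets passed. RORA, the nuclear receptor that activates BMAL1 at the element NR1D1 represses, went from 5.10 ± 0.25 to 5.66 ± 0.19 log2 units (SD, n = 5), a log2 fold change of 0.55 ± 0.12 (limma adjusted p = 0.00236). CIART, a repressor of BMAL1 and CLOCK, went from 2.74 ± 0.23 to 2.28 ± 0.22 (SD, n = 5, limma adjusted p = 0.00975), both under the first quartile of every array, so little is known of its size. Its 250-base window held CACGTG at 3 places, 129, 71 and 57 bases before the start. The windows of CLOCK, RORA and NFIL3 were searched as well. CLOCK, which did not pass, held CACGTT and TGGGTCA before its second start site. RORA, which rose, and NFIL3, which fell, held neither form of E-box, and NFIL3 held TAGGTCA and TGACG.

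RORB, a relative of RORA, read 0.24 on the log2 fold change scale (adjusted p = 0.143), and 0.36 without control array 4 (adjusted p = 0.00978). PASD1, an inhibitor of CLOCK found in testis and tumours, read -0.05 from a control level of 1.71. The 7 genes had a median log2 fold change of -0.05.

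Of the 4 bZIP factors that act at D-boxes, NFIL3, a repressor of such sites, fell from 6.33 ± 0.07 to 5.64 ± 0.15 log2 units (SD, n = 5, limma adjusted p = 1.69e-05). The activators DBP, TEF and HLF did not pass, with log2 fold changes of 0.16, 0.34 and -0.05. TEF passed without doxycycline array 4 (0.45, adjusted p = 0.0408). The 95% interval of DBP, a direct target of BMAL1 and CLOCK, was -0.02 to 0.33.

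**Figure D3:**
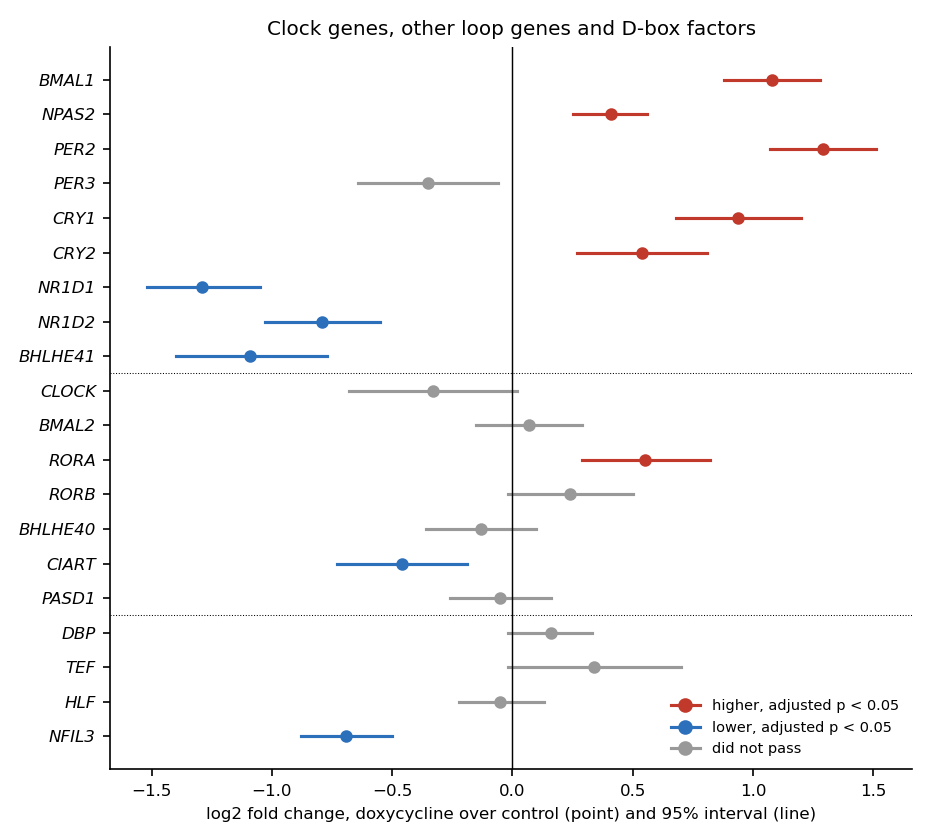
Log2 fold change of doxycycline over control (points) with its 95% interval (lines) for the 9 clock genes, the 7 other loop genes and the 4 D-box factors, separated by dotted lines. Red marks genes that rose, blue genes that fell and grey genes that did not pass at an adjusted p under 0.05.

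Genes that act on clock proteins had log2 fold changes between -0.29 and 0.48. Of 13 measured kinase, ubiquitin ligase and deubiquitinase genes 3 rose and 2 fell, with a median log2 fold change of 0.09, so 5 of 13 passed where 38.1% of all probe sets did. Most of these genes are bright. Without probe sets under the median of mean signal 5 of 12 of them passed, where 5586 of 9285 probe sets did. GSK3A, a kinase gene, was among those that rose (0.22 ± 0.08, adjusted p = 0.036 with all arrays), and its call was lost without any of control arrays 1, 3 and 5 or doxycycline arrays 1, 2, 4 and 5 (adjusted p = 0.0567 to 0.083). FBXW7, a ligase subunit that targets NR1D1, rose by 0.48 ± 0.10 (SE, adjusted p = 0.00142). PRKAA1 and PRKAA2, the catalytic subunits of AMP-activated kinase, went opposite ways (0.30 and -0.29), and CSNK2A1, a casein kinase subunit, fell by 0.24, a call lost without control array 2 (adjusted p = 0.0542). The casein kinase genes CSNK1D and CSNK1E, which phosphorylate PER proteins, gave 0.13 and -0.04 and did not pass.

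Among 15 transcription cofactors used by the clock 2 rose and 6 fell, with a median of -0.05, where 20.9% of all probe sets rose and 17.2% fell. EZH2, the Polycomb methyltransferase (-1.36 ± 0.10), TBL1X, part of the NCOR corepressor (-0.56 ± 0.08), and WDR5, a histone methyltransferase subunit (-0.45 ± 0.09), fell most. SIRT1, a deacetylase that acts on BMAL1 and PER2, rose by 0.30 ± 0.08. The falls of SFPQ, DHX9 and NONO (limma adjusted p = 0.0206 to 0.0291 with all arrays) were lost in some fits with 1 array left out. The fall of SFPQ was lost without any of control arrays 3 to 5 or doxycycline arrays 2 and 5 (adjusted p = 0.0554 to 0.0785), that of DHX9 without control array 1 or 3 or doxycycline array 2 or 4 (adjusted p = 0.0509 to 0.0716), and that of NONO without control array 2 (adjusted p = 0.0586). Without doxycycline array 1, CREBBP, KDM5A and TBL1XR1 passed as higher as well (adjusted p = 0.0483, 0.00461 and 0.0277), which made 11 of 15 called.

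Known output genes of the clock changed in both directions, with 3 of 10 higher, 5 lower and a median of -0.19. Over all probe sets 20.9% were higher and 17.2% lower. VEGFA, an angiogenic factor (-1.52 ± 0.08), and the Krüppel-like factors KLF11 (-1.27 ± 0.10) and KLF10 (-1.20 ± 0.07) fell, and KLF9 rose by 0.63 ± 0.10. The rise of MAOA was lost without control array 2 or 5 or doxycycline array 2 or 3 (adjusted p = 0.0525 to 0.0603). These genes answer to many other signals as well, and the list does not single out the clock.

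Some genes of the CREB, immediate early and glucocorticoid receptor lists were higher with doxycycline. Over all probe sets 20.9% rose and 17.2% fell, and brighter probe sets passed more often. Of 9 genes of CREB and the immediate early response 5 rose and 0 fell, with a median of 0.30. EGR1 (1.76 ± 0.09), FOS (1.23 ± 0.14), DUSP1 (0.70 ± 0.13) and NR4A1 (0.66 ± 0.08) rose, all genes that respond within minutes to serum. Of 7 genes of the glucocorticoid receptor list 3 rose and 0 fell, the kinase gene SGK1 (0.81 ± 0.09) besides DUSP1 and KLF9, and the receptor gene NR3C1 gave 0.03. TSC22D3, a target of the receptor, passed without doxycycline array 2 (0.36, adjusted p = 0.0197). Whether any of these genes has a part in the change of PER2 was not tested.

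Genes of growth fell in the same arrays, in which 17.2% of all probe sets fell. All 7 proliferation genes fell, with a median of -1.53, among them the nucleotide enzyme subunit RRM2 (-2.42 ± 0.08), the replication helicase subunit MCM2 (-2.11 ± 0.08), the proliferation marker MKI67 (-1.58 ± 0.14) and the mitotic kinase CDK1 (-1.53 ± 0.09). TIMELESS and TIPIN, replication fork proteins of which the first is named after a clock gene of the fly, fell by 1.35 and 1.30. MYC rose by 0.61 ± 0.10, and whether its probe set also reads Omomyc RNA was not tested. MAX, ZBTB17 (MIZ1) and MNT of its network gave -0.08, 0.08 and 0.07 and did not pass.

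**Figure D4:**
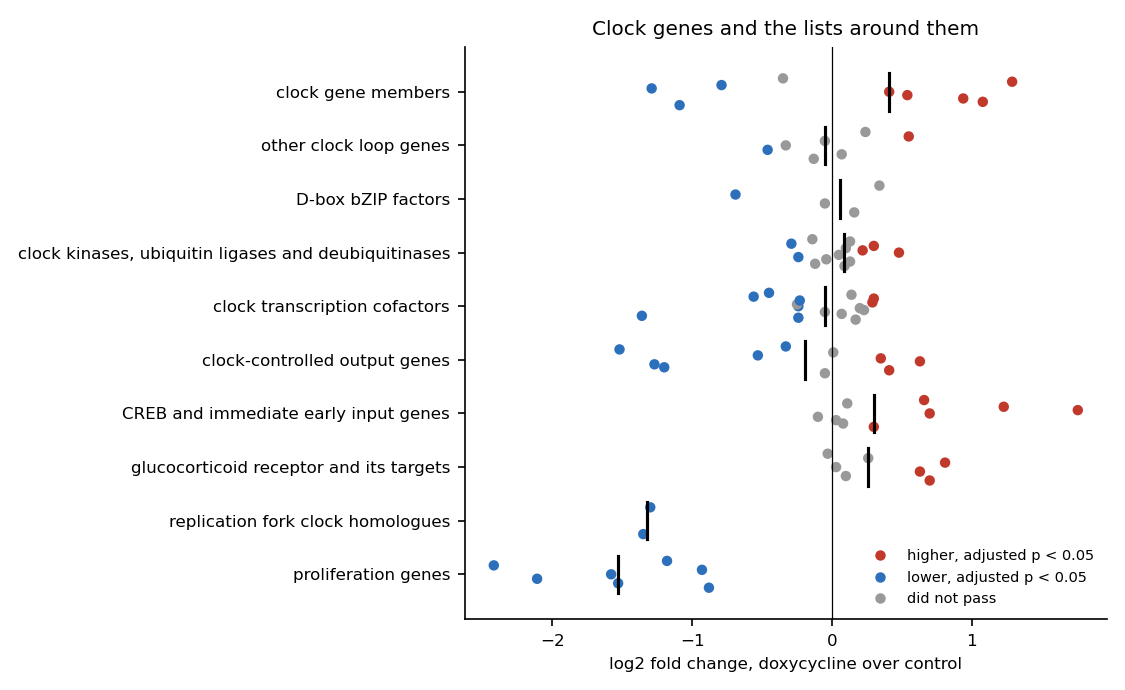
Log2 fold change of doxycycline over control for each measured gene (points) of the clock set and of 9 lists around it, with the median of each list as a black bar. Red genes rose, blue genes fell and grey genes did not pass. The clock set spreads from -1.29 to 1.29 and the other loop genes from -0.46 to 0.55.

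By the root mean square difference of log2 values over the 10 arrays, after each gene's control mean was subtracted, NBEA (0.0789 log2 units), EPHA4 (0.118) and CREBRF (0.122) had the profiles most like that of PER2. For NR1D1 the nearest were TBC1D5 (0.0929), DSN1 (0.123) and VEPH1 (0.125). With 5 arrays in each group this measure is set mainly by the size of the group difference.

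The 10 arrays had medians of 5.02 to 5.10 log2 units, and correlations over all probe sets of at least 0.99 within a group and at most 0.976 between groups. Of the melanocyte lineage markers SOX10, S100B, S100A1 and MITF were bright (control means of 6.50 to 8.71), while PMEL, MLANA, TYR and TYRP1 were below 2.94 log2 units, the highest first quartile of an array. Of the 8 measured, 4 rose (MITF, S100A1, S100B and TYR). For this and the marker counts below, 20.9% of all probe sets rose. The call of S100B was lost without control array 2, and that of TYR without any of control arrays 1 to 4 or doxycycline arrays 2, 4 and 5, and MLANA passed without doxycycline array 5. All 4 keratinocyte markers were under that quartile, and KRT5 rose, a call lost without control array 2 or 3 or doxycycline array 4. Fibroblast markers rose in 4 of 5 cases, with array means of 4.02 to 4.18 in control and 4.78 to 4.96 with doxycycline, led by PDGFRA and LUM. The call of COL1A1 was lost without any of control arrays 1, 2, 4 and 5 or doxycycline arrays 1 and 2 (adjusted p = 0.0624 to 0.0826). Endothelial markers rose in 1 of 4 (KDR), or 2 without doxycycline array 4, and leukocyte markers in 2 of 4 (LYZ and CD14), while PECAM1, CDH5, PTPRC and CD3E stayed under the quartile. With all 10 arrays no member of these lists fell, though KRT1 did without control array 5 or doxycycline array 4 and KRT14 without doxycycline array 1. Their part in the clock results was not tested.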

How the data were processed

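Total RNA of A375 cells, extracted with TRIzol, was hybridised to Clariom S human HT arrays, 1 per sample. The deposited values are log2 expression values made by the authors with RMA (background correction, quantile normalization, probe set summary), per the submitters' processing notes. For the RMA version and any filter, the sources used here give nothing. RMA equalises the arrays, so fold changes are relative to the bulk of genes. Nothing in the labels says that replicates came from separate cultures, so the spread behind the p-values may be technical.

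Symbols came from the platform annotation, which named 17511 of 18569 probe sets. Of 117 listed genes outside the clock set 102 had a named probe set, and no member or listed gene had more than 1. Doxycycline was compared with control with limma 3.58.1 in R 4.3.3 (lmFit, eBayes, two-sided, Benjamini-Hochberg over all 18569 probe sets, no filter), and a gene was called at an adjusted p under 0.05. The model was tested on simulated data. Pair differences and promoter letters were computed in Python 3.11.15, with RefSeq sequences of GRCh38.p14. Lists are described by counts and medians, with no set test.

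The members and lists were chosen with earlier results of these data known. Named genes were every measured clock, loop and D-box gene, the genes of the pairs, up to 4 called genes by size from each other list, and the 3 genes with the profile most like that of the highest and of the lowest member. Genes named besides these (CSNK1D, CSNK1E, NR3C1, MAX, ZBTB17, MNT, listed genes whose call hung on single arrays and the cell type markers that did not pass) were chosen after their values were seen. Alternatives were filters on dim probe sets, array medians, repeated quantile normalization, trend with robust fitting, array weights, a block by replicate number and leaving out each array.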

Additional observations from a re-analysis of the deposited data

Results flagged for a closer look

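In each gene named in the report that had a probe set, and in each pair, the highest or lowest of 5 arrays was compared with the others of its group, and it stood apart where its gap to the nearest array exceeded 0.71 of the whole range. Over 188 groups tested, chance gives about 9.4 such arrays and 11 were found, none of them in a clock gene of the set or in a pair. Some genes were named because their call changed with 1 array left out, so the number given by chance is only a rough guide. NFIL3 was low on doxycycline replicate 5, at 5.38 log2 units against 5.65 to 5.75 on the others. MCM2 was high on doxycycline replicate 1 (5.49 against 5.28 to 5.34), and RRM2 low on doxycycline replicate 3 (6.60 against 6.79 to 6.84). Among fibroblast markers LUM was high (3.71 against 3.36 to 3.42) and PDGFRA low (3.91 against 4.58 to 4.80), both on control replicate 1. COL1A1 was high on control replicate 3 (4.76 against 4.29 to 4.41), and DCN low on control replicate 5 (3.09 against 3.40 to 3.51). The endothelial marker PECAM1 was high on control replicate 1, at 2.28 against 2.05 to 2.07. KDM5A was low on doxycycline replicate 1 (7.10 against 7.74 to 7.87). NR3C1 was high on doxycycline replicate 4 (8.39 against 8.07 to 8.16), and ZBTB17 low on doxycycline replicate 3 (5.74 against 5.86 to 5.91).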

How the results depend on the processing

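Of the clock genes, BMAL1, NPAS2, NR1D1 and NR1D2 kept their direction and call under all 17 alternatives of the fit, and PER2, CRY1, CRY2 and BHLHE41 under the 16 that kept their probe sets. Without probe sets under the median of mean signal 4 clock genes were left and all 4 were called. PER3 passed at -0.35 without probe sets under the 25th percentile (adjusted p = 0.0420) and with trend and robust fitting (adjusted p = 0.0477). Leaving out 1 array gave PER3 values of -0.47 to -0.27. The number of probe sets called ranged from 5586 of 9285, without those under the median of mean signal, to 7696 of 18569 with array weights. That of listed genes ranged from 46 to 58, with 46 of 75 under that filter and 58 of 102 with array weights. Replicate numbers did not pair the arrays: same-numbered arrays had deviations from their group means correlated at -0.437 to -0.00746. With the replicate block 8 clock genes, 5 of the 15 cofactor genes (8 without it), 46 listed genes and 6476 probe sets were called. Sign flips within replicate numbers left the shifts of the pairs as they were (PER2 minus PER3 1.65, BMAL1 minus BMAL2 1.01, BHLHE40 minus BHLHE41 0.96, CLOCK minus NPAS2 -0.74, NR1D1 minus NR1D2 -0.49), but this block allows no p under 0.0625 and cannot pass. CRY1 minus CRY2 passed after repeated quantile normalization (0.43, adjusted p = 0.0397), and ranged from 0.30 to 0.50 with 1 array left out. NR1D1 minus NR1D2 then ranged from -0.57 to -0.39. The choice between probe sets of a gene could not be varied, since each gene had 1. Signal near background limits CIART, PASD1, HLF and, less, PER2, CRY2 and BHLHE41 (doxycycline mean 3.77 log2 units).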
